A study of Mus musculus with 22 samples.

Results

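The 42 genes described here encode the collagen chains of the mouse autosomes. They were chosen by name alone: all protein-coding genes of the GENCODE vM21 annotation of GRCm38 whose symbol reads Col, a number, the letter a and a number, which gave 42 of 20807 autosomal protein-coding genes. The 2 collagen genes on the X chromosome lay outside the rule. The measurement was chromatin accessibility by ATAC-seq, in which the transposase Tn5 cuts DNA that is not packed away. The locus of a gene was its span plus 20 kb on each side, and the peaks that touched it were read in 22 libraries. Accessibility was measured and transcript levels were not.

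Collagens are the main structural proteins of the extracellular matrix. Fibrillar collagens (types I, III and V among them) build the fibrils, fibril-associated collagens sit on their surface, type IV forms the sheet of the basement membrane and type VI forms beaded filaments around cells. Every adipocyte is wrapped in a basement membrane, and fat tissue lays down more collagen when it expands in obesity. Fibroblasts and adipocyte progenitors are the main makers of fibrillar collagen in fat, whereas basement membrane collagens are made by adipocytes, endothelial cells and mesothelial cells.

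The libraries came from epididymal fat of male AdipoERCre x NuTRAP mice, labelled as on a C576BL6 background, with 1 mouse per library. In these mice a tamoxifen-inducible Cre active in adipocytes switches on a reporter that lets adipocyte nuclei be pulled down, and every mouse, controls included, was given tamoxifen before the diets, so that the labelled nuclei are those of adipocytes present at that age. The short arm held C (3 mice of 18 weeks on chow), H (3 mice of 18 weeks after 12 weeks of high-fat diet), CC_s (3 mice of 26 weeks on chow) and HC (3 mice of 26 weeks, 12 weeks of high-fat diet followed by 8 weeks of chow, that is, weight loss). The long arm held CC_l (2 mice of 31 weeks on chow), HH (3 mice of 31 weeks after 25 weeks of high-fat diet), CCC (2 mice of 39 weeks on chow) and HHC (3 mice of 39 weeks, 25 weeks of high-fat diet and then 8 weeks of chow). The chow of the weight-loss phase was another diet than the low-fat chow of C and CC_l, and CC_s and CCC ate it too. The 2 arms coincide with the 2 series of library names, so that duration and series cannot be told apart.

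The libraries held between 40528 and 60523 peaks, which covered 128 to 299 Mb. Sequencing depth is unknown from peak lists, and the ratio of the median peak height to the lowest peak height was taken as a mark of enrichment. It was lowest in HHC 3 (2.25), HC 3 (2.43), CCC 2 (3.67) and HH 1 (3.75) and reached 8.92 in C 3. All 12 adipocyte marker genes had a promoter peak in all 22 libraries. Markers of other cell types had promoter peaks as well: 4 to 10 of 12 fibroblast and progenitor genes, 3 to 8 of 12 macrophage genes, 2 to 12 of 12 endothelial genes, 1 to 8 of 12 mesothelial genes and 1 to 3 of 12 lymphocyte genes, depending on the library. The mesothelial markers Upk1b, Gpm6a and Bnc1 and 6 of the lymphocyte markers, including Cd3e, Cd4 and Cd8a, had no promoter peak in any library.

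Sequences of 4 peaks described below, whose presence differed between chow-only and fat-fed libraries or whose signal did in both long pairs, are shown first. For peaks, the 200 bases around the highest signal are given on the plus strand, and for promoters the 250 bases before the start site of the gene on its own strand, both from RefSeq's GRCm38.p6 genome. Capitals mark matches, on either strand, to the motifs TATAAA for the TATA-binding protein, CCAAT for NF-Y, GGGCGG for Sp1, TGANTCA for AP-1, TGTGGT for RUNX factors, TTGCNNAA for C/EBP factors and AGGTCA for nuclear receptors. The intronic peak of Col19a1 (chr1:24471278-24471477) was seen in fat-fed mice and in no chow-only mouse. The peaks near Col26a1 (chr5:136721755-136721954), in an intron of Col5a2 (chr1:45420936-45421135) and in an intron of Col23a1 (chr11:51539710-51539909) had lower values in the fat-fed libraries of at least 1 pair and were not called on the 2 groups of any pair.

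Col19a1 intron: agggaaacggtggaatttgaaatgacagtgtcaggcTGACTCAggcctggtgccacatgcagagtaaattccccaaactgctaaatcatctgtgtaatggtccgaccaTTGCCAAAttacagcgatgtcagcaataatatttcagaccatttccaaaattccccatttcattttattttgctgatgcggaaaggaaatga

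Col26a1 downstream: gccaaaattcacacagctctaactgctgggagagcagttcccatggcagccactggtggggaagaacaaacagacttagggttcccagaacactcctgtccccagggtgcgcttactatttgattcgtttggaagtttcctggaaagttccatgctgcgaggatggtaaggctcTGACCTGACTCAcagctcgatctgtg

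Col5a2 intron: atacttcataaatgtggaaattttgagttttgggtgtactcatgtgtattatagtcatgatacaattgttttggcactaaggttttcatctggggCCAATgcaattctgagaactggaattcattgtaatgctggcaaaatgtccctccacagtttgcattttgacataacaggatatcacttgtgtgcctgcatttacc

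Col23a1 intron: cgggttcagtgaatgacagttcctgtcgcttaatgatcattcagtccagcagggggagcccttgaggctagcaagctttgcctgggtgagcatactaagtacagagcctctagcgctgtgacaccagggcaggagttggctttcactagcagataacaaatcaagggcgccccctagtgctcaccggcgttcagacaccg

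The Col19a1 sequence held a match to TGANTCA at base 37 and a match to TTGCNNAA at base 109. Among 102995 autosomal peak regions, 7.34% held the AP-1 motif and 14.2% the C/EBP motif in a window of the same length. In the Col26a1 sequence an AP-1 match at base 180 overlapped a match to AGGTCA that lies on the minus strand from base 175, and the latter motif was present in 13.4% of regions. The Col5a2 sequence held 1 CCAAT match, at base 96 (29.5% of regions), and the Col23a1 sequence held none of the 7 motifs.

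The promoters of Col6a6 (chr9:105828161-105828410, minus strand), Col16a1 (chr4:130047590-130047839, plus strand) and Col3a1 (chr1:45311288-45311537, plus strand) are shown because the signal at or around them differed between H and C.

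Col6a6 promoter: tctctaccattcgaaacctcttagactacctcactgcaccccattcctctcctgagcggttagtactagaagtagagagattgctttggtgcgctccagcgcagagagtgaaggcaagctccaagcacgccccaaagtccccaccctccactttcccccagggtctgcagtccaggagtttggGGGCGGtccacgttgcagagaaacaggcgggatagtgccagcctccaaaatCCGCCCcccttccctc

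Col16a1 promoter: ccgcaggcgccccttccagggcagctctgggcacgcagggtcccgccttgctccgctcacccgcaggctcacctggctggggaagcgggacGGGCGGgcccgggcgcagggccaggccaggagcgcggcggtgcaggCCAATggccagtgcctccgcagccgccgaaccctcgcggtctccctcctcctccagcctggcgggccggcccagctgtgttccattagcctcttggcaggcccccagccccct

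Col3a1 promoter: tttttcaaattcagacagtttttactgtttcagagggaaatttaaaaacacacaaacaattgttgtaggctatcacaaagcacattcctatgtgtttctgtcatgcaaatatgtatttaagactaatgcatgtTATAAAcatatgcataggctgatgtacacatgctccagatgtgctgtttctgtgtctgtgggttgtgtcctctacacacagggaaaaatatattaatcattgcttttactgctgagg

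The Col6a6 promoter held GGGCGG at base 184 and, on the other strand, at base 235. The Col16a1 promoter held GGGCGG at base 92 and CCAAT at base 138, and the Col3a1 promoter held TATAAA at base 134. Over all 42 collagen promoters, 20 held GGGCGG, 15 CCAAT, 10 AGGTCA, 5 TATAAA, 4 TGTGGT, 2 TTGCNNAA and 0 TGANTCA. Of the 20807 promoters of the same length, 39.6% held GGGCGG, 35.5% CCAAT, 13.0% AGGTCA, 11.6% TATAAA, 13.0% TGTGGT, 9.28% TTGCNNAA and 5.998% TGANTCA.

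The basement membrane genes Col4a1 and Col4a2 stood at the open end of the family. Their loci were covered by peaks over a median of 91.1% (range 30.2 to 97.7%) and 89.5% (33.6 to 99.0%) of their length, which placed them at rank 84 and 82 of the 20807 loci by mean coverage. The 2 genes lie head to head on chromosome 8 (Col4a1 at 11198423-11312826, Col4a2 at 11312805-11449287), overlap by 22 bp and share 40022 bp of their loci, so that 1 to 9 peaks per library counted for both. Col15a1, a collagen of the basement membrane zone with a median of 62.3% (16.3 to 81.9%), Col5a3, a fibrillar chain, with 53.8% (21.2 to 89.5%), and Col6a1, a beaded filament chain, with 52.4% (14.1 to 68.6%) followed. At the closed end, Col11a1, a cartilage fibrillar chain, and Col6a4 had a median of 0%, with peaks in 6 and 9 of the 22 libraries, and Col25a1 and Col13a1, both transmembrane collagens, had medians of 0.602% and 0.844%. The chains of type I and type III collagen lay between, with medians of 30.3% (Col1a1), 10.0% (Col1a2) and 23.0% (Col3a1). The other chains tied to adipose stroma had medians of 27.2% (Col5a1), 11.5% (Col5a2), 15.6% (Col6a2), 24.2% (Col6a3), 11.5% (Col12a1) and 28.6% (Col18a1).

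**Figure D1:**
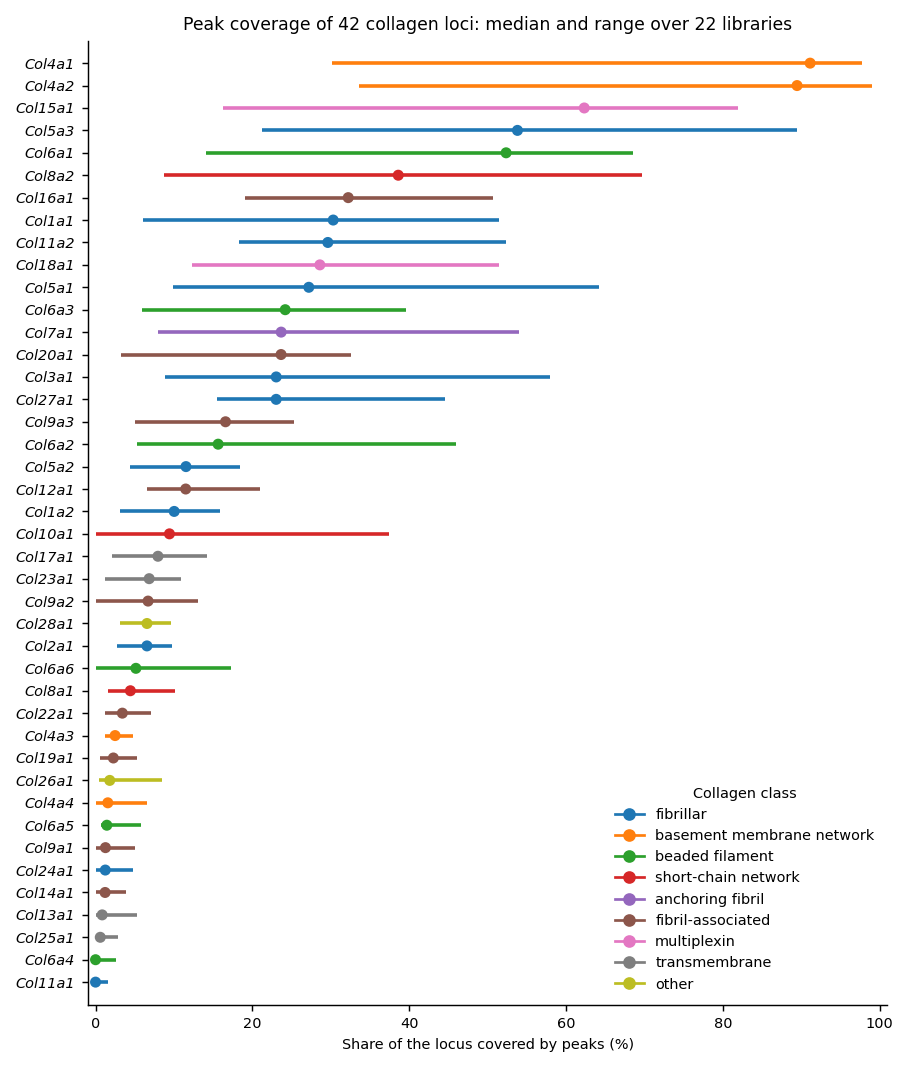
Share of each of the 42 collagen loci that was covered by peaks, in percent of the locus length. Points are the median over 22 libraries, lines run from the lowest to the highest library and colours give the collagen class; Col4a1 and Col4a2 stand at the top with medians of 91.1% and 89.5%.

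Of the 42 loci, 31 held a peak in all 22 libraries and none was without a peak in every library. The median coverage was above 50% in 5 collagen loci (11.9%, against 8.55% of all loci) and under 5% in 14 (33.3%, against 32.6%). A peak within 2000 bp of a start site was present in all libraries for 17 members (all genes: 45.1%) and in no library for 4, Col9a1, Col28a1, Col6a4 and Col17a1 (all genes: 20.6%). Long genes were covered less, with a Spearman rho of -0.52 and a Pearson r of -0.30 between gene length and mean coverage over the 42 genes, which share the same libraries. In 19 loci the start site of another gene lay inside the locus. Besides the Col4a1 and Col4a2 pair, loci of Col4a3 and Col4a4, Col3a1 and Col5a2, Col9a1 and Col19a1, and neighbours in the row Col6a6, Col6a5 and Col6a4 overlapped, by 11190 to 39929 bp.

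For the comparisons of signal, the total signal of the peaks at a locus was put on a common log2 scale by rank, with a floor of 14.06 for loci with little or no peak signal. After 12 weeks of high-fat diet, Col19a1, Col6a6 and Col17a1 rose and Col3a1 fell. Of 39 collagen loci tested, 4 were called higher in H relative to C and 1 lower at an adjusted p under 0.05 (limma), a share near the 11% of all 16567 loci that were called in either direction. The other locus called higher, Col24a1, was at the floor in all C libraries and was tested only because its H values were high, so its call supports nothing and its values are given as a description. At an unadjusted p under 0.05, 13 collagen loci were higher in H and 3 lower, against 16.7% and 14.6% of all loci. At that level 6 were higher and 5 lower with the maximum signal (10.7% and 10.2% of all loci), 3 and 3 with the covered length (6.95% and 12.4%), and 10 and 5 with median centring (14.8% and 14.8%). Among the 13 were Col24a1 and Col10a1, with 0 and 1 of the 3 C libraries above the floor. Both were tested only through H, so their place in that count supports nothing. The median difference was 0.30 over the collagen loci, of which 25 had a positive difference, and -0.01 over all loci. The tilt depended on the measure. With the maximum signal 16 of the 39 had a positive difference, the collagen median was -0.06 and 3 loci were called higher and 0 lower (2.29% and 1.47% of all loci). With the covered length 1 was called higher and 2 lower (1.04% and 1.35%), and with peaks counted in proportion to their length inside the locus 10 higher and 2 lower (8.65% and 7.12%). Without C 3 the adjusted test called 10 collagen loci, where 6.75% of all loci were called, and without H 1, C 2 or H 2 it called 2, where 1.32% to 1.77% were. Col19a1 kept an adjusted p under 0.05 with each of the 6 libraries left out and lost it with the covered length and with the 20000 strongest peaks. Col3a1 and Col6a6 lost it without H 1, C 2 or H 2, and Col17a1 kept it only without C 3. With the maximum signal Col3a1, Col6a6 and Col17a1 lost it.

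Among the fibril-associated collagens, Col19a1, a chain known from basement membrane zones of muscle and brain, rose by 1.76 (SE 0.19, adjusted p = 0.0077). The log2 signal was 15.80, 15.71 and 15.29 in the C mice and 17.42, 17.33 and 17.33 in the H mice, without overlap. Over the 39 collagen loci tested, all H libraries lay above all C libraries at 14 (20.2% of all loci) and below at 2 (17.7%). In the fibril-associated class 8 of 9 loci had a positive difference, 4 of them at an unadjusted p under 0.05, with a class median of 0.59. With the maximum signal 4 of 9 had a positive difference. The others of these 4 were Col20a1 (1.32), Col9a2 (1.02) and Col22a1 (0.75), named after their values were seen, with adjusted p between 0.077 and 0.13, and Col20a1 had a difference of -0.13 with the maximum signal.

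Among the beaded filament genes, Col6a6 rose by 2.80 (SE 0.44, adjusted p = 0.016). Its signal was 15.38, 15.52 and 14.06, the floor, in C and 18.16, 17.22 and 18.00 in H. The covered share of the locus was 3.22%, 2.63% and 1.89% in C and 17.2%, 9.17% and 14.3% in H. Col6a2, part of the classical type VI trimer, had a difference of 0.84 (SE 0.25, adjusted p = 0.071), with 17.02, 16.87 and 17.65 in C against 18.18, 18.16 and 17.72 in H, and a difference of -0.18 with the maximum signal. Col6a1 and Col6a3, the partners of Col6a2 in that trimer, had unadjusted p of 0.091 and 0.12.

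Of the 10 fibrillar loci tested, 6 had a positive difference, with a class median of 0.02. Col3a1, the chain of type III collagen, fell by 1.09 on the log2 scale (SE 0.21, adjusted p = 0.026), from 19.01, 18.48 and 18.47 in C to 17.28, 17.65 and 17.76 in H. Its covered share was 42.6%, 53.4% and 51.1% in C and 16.9%, 22.7% and 20.2% in H, with no overlap, while its promoter peak was present in all libraries. A fit with the replicate number as a block ended this call (adjusted p = 0.071). The direction held for the extent of the peaks and not for their height, since the maximum signal at the locus gave a difference of 0.24. Col24a1, a minor fibrillar chain, was at 16.43, 15.77 and 16.43 in H and at the floor in all 3 C libraries, so the size of its difference depends on where the floor lies. Col5a1 had a difference of 0.71 (adjusted p = 0.078), with H between 19.68 and 19.82 and C between 18.61 and 19.49. The type I chains did not pass either threshold, with Col1a1 at 18.29, 18.45 and 18.67 in C and 18.19, 18.31 and 18.11 in H, and Col1a2 at 16.90, 16.31 and 15.25 in C and 17.07, 16.72 and 16.83 in H.

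Of the 4 basement membrane genes, Col4a1 and Col4a2 were already open in chow and had positive differences that missed the adjusted threshold. Col4a1 was at 20.37, 20.49 and 21.60 in C and 21.86, 21.77 and 22.17 in H, a difference of 1.11 (SE 0.31, adjusted p = 0.065). Col4a2 had a difference of 0.82 (SE 0.25, adjusted p = 0.076). In each H library a single peak ran across the Col4a1 locus and covered 97.7%, 95.2% and 95.3% of it, whereas the C libraries had 14, 11 and 1 peaks there. The C library with the single peak was C 3, and without it the differences were 1.502 and 1.09, with adjusted p of 0.012 and 0.026. Col4a3 and Col4a4, the chains of kidney glomeruli, had unadjusted p above 0.05.

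Of the remaining classes, the transmembrane collagen Col17a1, a hemidesmosome protein of skin named after its values were seen, rose by 1.27 (SE 0.29, adjusted p = 0.036), from 15.31, 15.04 and 16.01 in C to 16.95, 16.56 and 16.67 in H. The call was lost with the replicate block (adjusted p = 0.067), with the maximum signal, with the covered length and in the fit of all libraries of the short arm. Col17a1 had no promoter peak in any library, and its H signal lay partly in a region that also overlaps the neighbouring gene Slk. Col15a1 was at 20.04, 19.53 and 20.38 in C and 20.45, 20.43 and 20.39 in H, and its difference turned negative with the maximum signal. Col18a1, the precursor of endostatin, had an unadjusted p of 0.35.

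**Figure D2:**
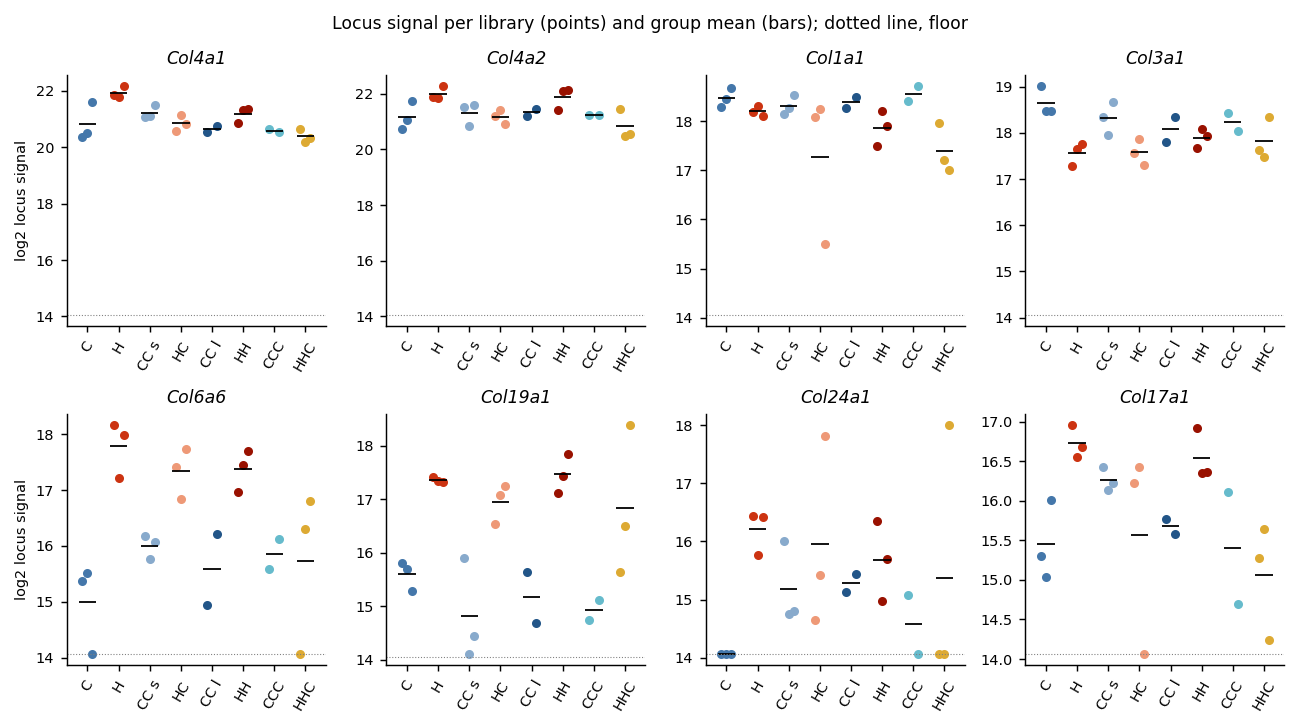
Log2 locus signal of 8 collagen genes in every library, by group, with the floor at 14.06. Col19a1 was higher in every fat-fed library than in the chow-only libraries of the same age, and Col3a1 was lower in the 3 H than in the 3 C libraries.

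Other measures moved with diet beside these loci. The number of mesothelial marker promoters with a peak was 4 to 7 of 12 in C and 1 to 2 in H, and 5 in both CC_l libraries against 1 to 3 in HH. By locus signal, Lrrn4 of this list fell by 1.27 on the log2 scale and Upk1b rose by 1.84 in H (adjusted p = 0.014 and 0.012, limma), with a list median of 0.01. The mean log2 locus signal of the 12 endothelial markers was 15.59 to 15.80 in C and 15.80 to 16.30 in H. Among these markers Cdh5 rose by 2.89 (adjusted p = 0.012, limma) and Vwf fell by 1.07 on the log2 scale (adjusted p = 0.039, limma), and 2 to 5 endothelial promoters had a peak in H against 2 to 4 in C. Of the 7 macrophage markers tested, 0 were higher and 3 lower in H at an unadjusted p under 0.05, with a median of -0.33, and 3 to 6 promoters had a peak in C and 4 to 6 in H. Of the 12 adipocyte markers, Fabp4 rose by 0.90, and Pparg and Cfd fell by 0.53 and 1.05 on the log2 scale (adjusted p of 0.018, 0.018 and 0.035, limma). The enrichment ratio was 6.82 to 8.92 in C and 4.70 to 6.40 in H. The part of these measures in the differences at collagen loci was not tested. Of the fibroblast and progenitor markers, 5 to 7 promoters had a peak in C and 4 to 7 in H. By locus signal, 3 of these 12 were higher and 3 lower in H at an unadjusted p under 0.05, and Cd34 fell by 1.11 on the log2 scale (adjusted p = 0.023, limma).

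After weight loss in the short arm, no locus of 16502 was called in HC relative to CC_s (0%), and at an unadjusted p under 0.05 the share was 3.78% upwards and 5.22% downwards. Of 40 collagen loci tested, 3 were higher (Col6a6, Col19a1 and Col25a1) and 3 lower (Col26a1, Col3a1 and Col23a1) at that level, with a median of 0.04 against -0.02 over all loci. Col6a6 was at 16.18, 15.76 and 16.06 in CC_s and 17.42, 16.85 and 17.74 in HC, a difference of 1.33 (SE 0.31, adjusted p = 0.34). Col19a1 was at 15.91, 14.11 and 14.46 in CC_s and 16.54, 17.08 and 17.26 in HC, a difference of 2.13 (SE 0.51, adjusted p = 0.36). Col3a1 was at 18.35, 17.95 and 18.66 in CC_s and 17.57, 17.88 and 17.30 in HC (difference -0.74, SE 0.27, adjusted p = 0.51), and Col26a1, a gene of testis and ovary matrix, differed by -1.41 (SE 0.43, adjusted p = 0.46). The groups did not overlap at these loci. All HC libraries lay above all CC_s libraries at 6 of the 40 collagen loci (6.8% of all loci) and below at 5 (9.56%). With the maximum signal the differences were -0.40 for Col6a6 and 0.25 for Col3a1. Col25a1, at the floor in CC_s 1 and CC_s 2 and at 14.25 in CC_s 3, was tested only because its HC values were high (14.92, 16.09 and, in HC 3, 18.20), so its count among the 3 supports nothing. Without HC 3 the differences were 1.132 for Col6a6, 1.98 for Col19a1, -0.60 for Col3a1, -1.11 for Col26a1 and 1.38 for Col25a1, and 5 collagen loci were higher and 2 lower at the unadjusted level (5.78% and 5.34% of all loci in that fit). With the maximum signal Col26a1 was called (difference -1.86, adjusted p = 0.048). The mean log2 signal of the endothelial markers was 15.43 to 15.72 in CC_s and 15.81 to 16.96 in HC. That of the mesothelial markers was 16.33 to 16.44 in CC_s and 16.56 to 16.80 in HC. The enrichment ratio was 7.30 to 7.42 in CC_s and 2.43 to 6.50 in HC, without overlap. The part of these measures in the collagen differences was not tested.

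After 25 weeks of high-fat diet, 1 locus of 16796 was called in HH relative to CC_l (0.00595%), and it was no collagen locus. At an unadjusted p under 0.05, 7 of 41 collagen loci were higher and 1 lower, against 6.75% and 5.5% of all loci, and the collagen median was 0.18 against -0.03. The counts were 2 and 0 with the maximum signal (2.88% and 2.51% of all loci), 2 and 2 with the covered length (2.3% and 2.85%), 2 and 2 with the 20000 strongest peaks (5.29% and 5.17%), and 4 and 2 with median centring (6.53% and 6.43%). They were 7 and 5 without HH 2 (6.03% and 5.71%) and 2 and 0 without CC_l 1 (3.59% and 3.13%). Col19a1 was at 15.65 and 14.69 in CC_l and 17.11, 17.44 and 17.84 in HH, a difference of 2.29 (SE 0.39, adjusted p = 0.13). Col6a6 was at 14.94 and 16.22 in CC_l and 16.96, 17.45 and 17.70 in HH, a difference of 1.79 (SE 0.45, adjusted p = 0.20). Leaving out 1 library in turn gave differences of 1.16 to 2.43 for Col6a6. Col15a1 was at 19.62 and 19.71 in CC_l and 19.99, 20.28 and 20.24 in HH (difference 0.51, SE 0.14, adjusted p = 0.23). Differences of 0.54 for Col4a1 and 0.70 for Col12a1, which both had adjusted p near 0.3, and of -0.53 for Col5a3 (adjusted p = 0.27) were among the 8, together with Col17a1 (0.87) and Col25a1, named after its values were seen, whose difference of 1.133 was 0.44 without CC_l 1 and 1.83 without CC_l 2. All 12 endothelial marker promoters had a peak in HH 1, against 3 and 4 in the other HH libraries, and without HH 1 the differences were 2.47 for Col19a1, 2.00 for Col6a6, 0.60 for Col15a1 and 0.70 for Col4a1. The mean log2 signal of the fibroblast and progenitor markers was 16.13 and 16.51 in CC_l and 16.64 to 16.83 in HH, and the part of either cell type in these differences was not tested. With the maximum signal the differences of Col4a1, Col12a1 and Col5a3 were -0.12, -0.35 and 0.04. For Col5a3, leaving out 1 library in turn gave -0.71 to -0.35. Without HH 1, 1 collagen locus, Col4a2, was called at an adjusted p of 0.043 with a difference of 0.77, where 1.11% of all loci were called.

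In the long weight-loss pair, HHC relative to CCC, no locus of 16932 was called (0%), and 1.61% were higher and 2.46% lower at an unadjusted p under 0.05. Of 41 collagen loci, 0 were higher and 2 lower at that level, Col1a1 and Col26a1, and the collagen median was 0.07 against -0.03. Col1a1 was at 18.40 and 18.71 in CCC and 17.95, 17.20 and 17.01 in HHC, a difference of -1.17 (SE 0.36, adjusted p = 0.85). Col26a1 was at 16.27 and 16.14 in CCC and 15.14, 15.39 and 14.64 in HHC, a difference of -1.15 (SE 0.40, adjusted p = 0.85). Col19a1 was at 14.75 and 15.11 in CCC and 15.65, 16.49 and 18.38 in HHC, and its difference of 1.91 had an unadjusted p of 0.067. The value of 18.38 came from HHC 3, the library of lowest enrichment, and without it the difference was 1.14 (unadjusted p = 0.037, adjusted p = 0.70). Fibroblast and progenitor markers had a mean log2 signal of 16.36 in both CCC libraries and 16.56 to 17.45 in HHC, highest in HHC 3, and their part in these values was not tested. Without HHC 3, 2 collagen loci were higher and 5 lower at the unadjusted level (3.01% and 3.98% of all loci in that fit). With the replicate number as a block the counts were also 2 and 5 (2.94% and 3.46%). Col6a6 did not separate here, with 15.58 and 16.12 in CCC and 14.06, 16.31 and 16.81 in HHC.

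**Figure D3:**
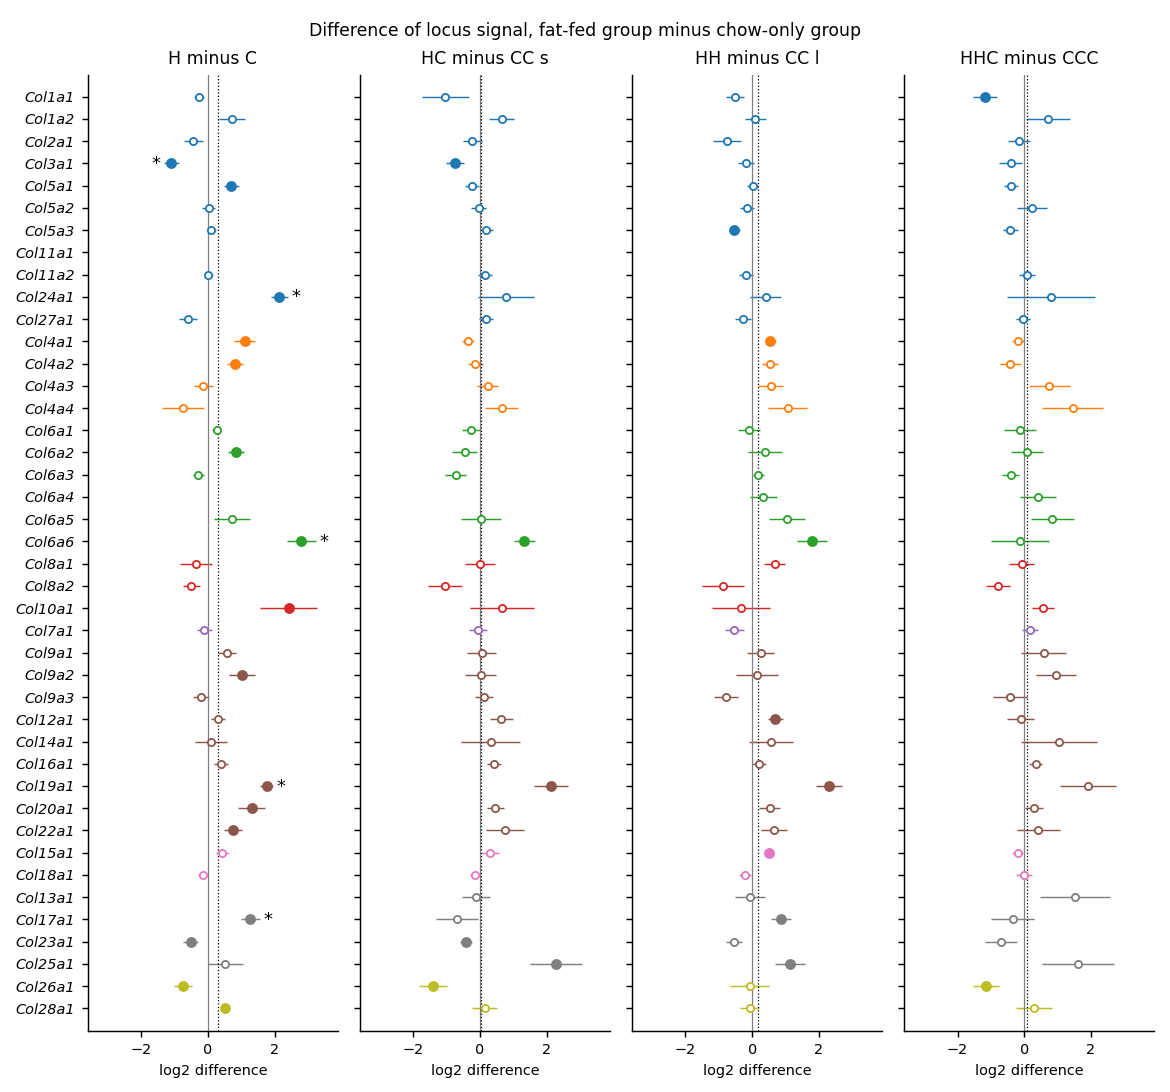
Log2 difference of locus signal between the fat-fed and the chow-only group of the same age for each tested collagen gene, with its standard error, in the 4 pairs. Filled points had an unadjusted p under 0.05, stars an adjusted p under 0.05, and the dotted line is the collagen median (0.30, 0.04, 0.18 and 0.07 from left to right), whose sign turned under another measure or choice of peaks in each pair.

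The sign of the collagen median was not stable. With the maximum signal it was -0.06 in H, -0.04 in HC and -0.08 in HHC, with the covered length -0.37 in HC and -0.21 in HHC, with no flank -0.13 in HHC, and with the 20000 strongest peaks -0.06 in HC, -0.05 in HH and -0.04 in HHC. Without HHC 3 the median in HHC was -0.17, and with the replicate block it was -0.16.

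Across the 4 pairs, which share no library, Col19a1 was the only collagen locus whose fat-fed libraries all lay above the chow-only libraries of the same age every time. Of 16125 loci tested in all pairs, 0.812% had this property. The sign of the difference was positive in all pairs for 11 of 39 collagen loci (17.0% of all loci) and negative for 7 (21.0%). With the maximum signal 2 of 39 were positive and 8 negative (11.9% and 14.4% of all loci). The counts were 4 and 9 with the covered length (5.77% and 37.3%) and 7 and 5 with median centring (18.3% and 20.5%). The 11 included 7 of the 9 fibril-associated genes (Col9a1, Col9a2, Col14a1, Col16a1, Col19a1, Col20a1 and Col22a1). This count did not hold under other measures, since 1 of the 9 (Col19a1) was positive in all pairs with the maximum signal, 2 (Col19a1 and Col22a1) with the covered length, and 4 (Col16a1, Col19a1, Col20a1 and Col22a1) with peaks in proportion to their length inside the locus or with median centring. The 7 with a negative sign included Col1a1, Col3a1 and Col18a1. The sign in obesity was kept after weight loss for 28 of 39 collagen loci in the short arm (71.8%, all loci 64.2%) and for 26 of 41 in the long arm (63.4%, all loci 60.3%).

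The difference between the durations was tested by itself. For obesity, 0 of 17328 loci were called and 4 of 42 collagen loci had an unadjusted p under 0.05 (all loci: 5.02%). These were Col24a1 (short minus long 1.74, SE 0.50), Col5a3 (0.63, SE 0.20), Col3a1 (-0.91, SE 0.33) and Col5a1 (0.70, SE 0.30), each at an adjusted p of 0.92. Col24a1 was at the floor in all 3 C libraries, so its value here also depends on where the floor lies and supports nothing. For weight loss, 0 loci were called and 0 of 42 collagen loci had an unadjusted p under 0.05 (all loci: 1.33%).

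Within the loci, single peaks were compared as union regions, that is, stretches covered by a peak in any library. The collagen loci held 302 of 104657 union regions. Of the 302, 46 had a peak in all libraries, 116 in a single library, and 248 overlapped no promoter. In H relative to C, 9 of 106 collagen regions tested were called at an adjusted p under 0.05 and a log2 difference over 1, with 7 higher and 2 lower, where 8.28% of 30840 regions were called. With a difference of that size and an unadjusted p under 0.01, 9 were higher and 2 lower, against 5.04% and 3.49% of all regions. Under another scaling, by the median of the common regions, 22 collagen regions were called higher and 1 lower (12.1% and 1.95% of all regions, against 4.93% and 3.36% before), and the median of all regions moved from -0.05 to 0.23. Without C 2 no collagen region was called (0.374% of all regions higher and 0.0556% lower), and the Col16a1 region below then had an adjusted p of 0.064. Of the 9 called, the regions of Col19a1 and Col24a1 were at the floor in all C libraries and were tested only through H, so their values are given as a description.

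The called regions of smallest p lay in an intron of Col19a1, downstream of Col24a1 and at the start site of Col16a1. The Col19a1 region (chr1:24466741-24472751, sequence above) has its highest signal 116 kb downstream of the start site. It held a peak in 3 of 3 H, 2 of 3 HC, 3 of 3 HH and 2 of 3 HHC libraries and in none of the 10 chow-only libraries. The positions of highest signal in these 10 libraries lay within 69 bp of each other. The 2 fat-fed libraries without the peak were HC 3 and HHC 3, both of low enrichment, and without the 4 libraries of a ratio under 4 the count was 9 of 9 fat-fed and 0 of 9 chow-only libraries. A region with no peak in chow-only libraries and a peak in at least 10 fat-fed libraries, limits set after the values were seen, occurred 48 times among the 104657 regions (0.0459%). In H the signal was 15.70, 15.52 and 15.59 and in C it was at the floor of 14.01.

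The Col24a1 region (chr3:145555410-145561946) lies 5.82 kb past the end of the gene. Its signal was 15.97, 15.78 and 16.04 in H and at the floor in all C libraries. In the long arm HH was at 14.01, 14.01 and 14.93 and CC_l at 15.18 and 15.40.

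Around the start site of Col16a1, a fibril-associated chain, the accessible stretch was wider in H than in C. The region (chr4:130033665-130056275) had a log2 signal of 14.24, 14.94 and 15.30 in C and 17.02, 17.59 and 16.54 in H (difference 2.22, SE 0.35, adjusted p = 0.0091). Peaks covered 1919, 3647 and 6455 bp of it in C and 12596, 17010 and 7578 bp in H. The differences were 1.36 in HC (SE 0.26, adjusted p = 0.14) and 2.08 in HH (SE 0.30, adjusted p = 0.16). In the long weight-loss pair CCC was at 16.05 and 15.36 and HHC at 16.60, 16.67 and 17.78. The fat-fed libraries lay above the chow-only ones in each of the 4 pairs, as they did in 0.491% of 25683 regions. The height of the peaks did not follow, since the maximum signal gave a difference of 0.29 between H and C (adjusted p = 0.37) and of -0.03 between HH and CC_l.

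Other regions called in H, named after their values were seen, were 1 each at the 3′ end of Col6a6, around the start of Col20a1, at the 3′ end of Col17a1 and in Col6a2, all higher, and 2 in Col27a1, lower. The Col6a6, Col20a1, Col17a1 and Col6a2 regions also overlap the neighbouring genes Pik3r4, Arfgap1, Slk and Ftcd. The 2 Col27a1 regions (chr4:63211451-63236861 and chr4:63305325-63313147) fell by 1.09 and 1.17 on the log2 scale. The Col6a2 region had a peak in 1 of 3 C and 3 of 3 H libraries. The Col27a1 region chr4:63305325-63313147 had one in 3 of 3 C and 1 of 3 H libraries. Each of these regions was tested only through the group where it was high, so its call supports nothing and its values are a description. At Col3a1 a region with the promoter (chr1:45307791-45324383) and another covering the 3′ part of the gene (chr1:45328870-45364278) had differences of -0.99 and -0.90, just under the size needed for a call, with adjusted p of 0.015 and 0.014.

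**Figure D4:**
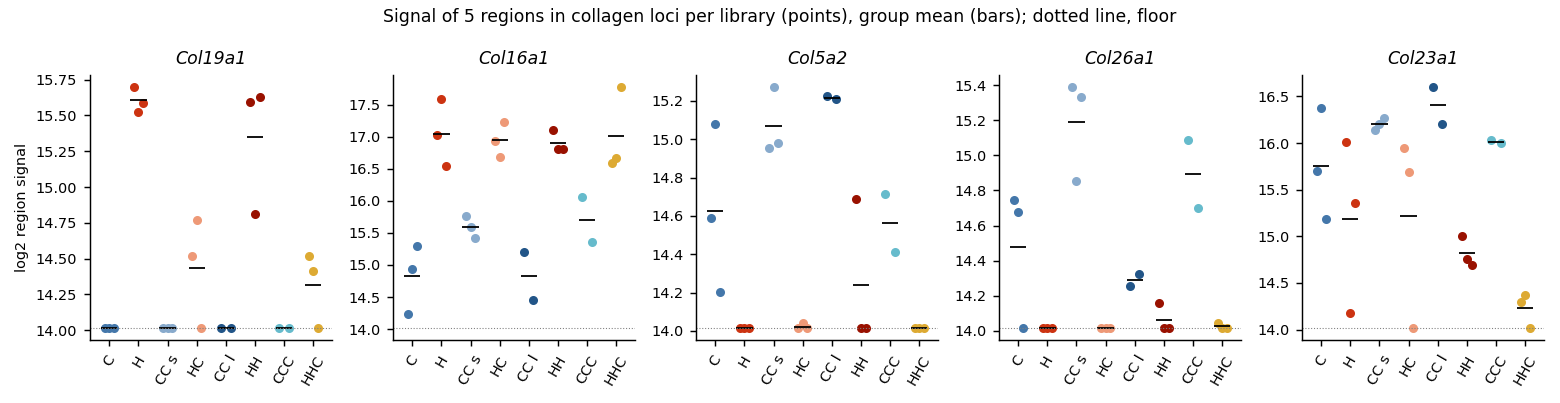
Log2 signal of 5 regions in collagen loci in every library, by group, with the floor at 14.01. The Col19a1 intron region was above the floor only in fat-fed libraries, Col16a1 was higher and Col5a2 lower in the fat-fed libraries of each pair.

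In the other pairs no region was called (0% of 29699 in HC relative to CC_s, 0% of 33619 in HH relative to CC_l and 0% of 32736 in HHC relative to CCC). At an unadjusted p under 0.01 and a log2 difference over 1, 1 of 99 collagen regions was higher and 3 lower in HC (all regions 0.441% and 2.1%). In HH 1 of 109 was higher and 1 lower (1.36% and 1.33%), and in HHC 0 of 103 were higher and 1 lower (0.122% and 0.583%). With median centring the counts were 5 and 1 in HC (2.43% and 1.86% of all regions). They were then 4 and 1 in HH (3.86% and 1.04%) and 1 and 2 in HHC (0.837% and 0.702%). The Col5a2 and Col26a1 regions below, both among the 3 lower in HC, were tested only through CC_s.

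A region in an intron of Col5a2 (chr1:45419073-45424860), a partner of Col5a1 in type V fibrils, held a peak in all 10 chow-only libraries and in 3 of 12 fat-fed libraries. Its signal was 14.96, 15.27 and 14.98 in CC_s and at or next to the floor in HC (difference -1.05, SE 0.23, adjusted p = 0.15). With a peak in 1 of 3 HC libraries it was tested only through CC_s, so this difference is given as a description. Fat-fed libraries lay below chow-only libraries in each of the 4 pairs, as in 1.71% of the 25683 regions. The region 19.9 kb past the end of Col26a1 (chr5:136720243-136723052) held a peak in 9 of 10 chow-only and 3 of 12 fat-fed libraries. It was at 15.39, 14.85 and 15.33 in CC_s and at the floor in HC, so it was tested only through CC_s, and at 15.09 and 14.70 in CCC against 14.05, 14.01 and 14.01 in HHC. A peak in at least 9 chow-only and at most 3 fat-fed libraries, again limits set after the values were seen, occurred in 490 of all regions (0.468%). Without the 4 libraries of low enrichment the Col5a2 region had a peak in 9 of 9 chow-only and 2 of 9 fat-fed libraries and the Col26a1 region in 8 of 9 and 2 of 9.

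The intronic region of Col23a1 (chr11:51538061-51546317), a transmembrane collagen, had lower values in the fat-fed libraries of both long pairs. It was at 16.61 and 16.20 in CC_l and 15.00, 14.76 and 14.69 in HH (difference -1.59, SE 0.31, adjusted p = 0.17). It was at 16.03 and 15.996 in CCC and 14.29, 14.37 and 14.01 in HHC (difference -1.79, SE 0.45, adjusted p = 0.75). In the short arm the HC libraries, at 15.94, 15.69 and 14.01, also lay below CC_s, at 16.14, 16.20 and 16.27. The H libraries, at 16.01, 14.18 and 15.35, overlapped C, at 15.70, 16.37 and 15.19. The start region of Col12a1 (chr9:79712625-79724330), a fibril-associated chain of dense connective tissue, was at 16.71 and 16.16 in CC_l and 17.26, 17.27 and 17.40 in HH (difference 0.88, SE 0.21, adjusted p = 0.19). An intronic region of Col27a1 (chr4:63246995-63251900) was at 14.61 and 14.51 in CCC and at the floor in all 3 HHC libraries.

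Among the 42 genes, the presence of a promoter peak differed most between chow-only and fat-fed libraries at Col6a6 and Col23a1. The Col6a6 promoter had a peak in 0 of 3 C, 3 of 3 H, 1 of 3 CC_s, 3 of 3 HC, 0 of 2 CC_l, 3 of 3 HH, 0 of 2 CCC and 2 of 3 HHC libraries. At most 1 chow-only and at least 11 fat-fed libraries, limits set after the values were seen, were found at 3 of 20807 genes (0.0144%). The Col23a1 promoter had a peak in 10 of 10 chow-only and 6 of 12 fat-fed libraries. Without the libraries of low enrichment, the counts were 1 of 9 and 8 of 9 for Col6a6 and 9 of 9 and 6 of 9 for Col23a1.

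The genes that process collagen were read in the same way. Of the 32 genes of collagen assembly and crosslinking, 31 were tested in H relative to C, of which Plod1, a lysyl hydroxylase, rose by 0.97 and Loxl1, a lysyl oxidase, and P4hb, a subunit of prolyl hydroxylase, fell by 0.84 each on the log2 scale, with a list median of -0.05. Of the 12 genes of collagen degradation, 11 were tested. Mrc2, an endocytic collagen receptor, rose by 1.05 and Mmp2, a gelatinase, fell by 1.01 on the log2 scale (adjusted p = 0.030, limma). Of the 12 collagen receptors, 10 were tested, and 3 rose, Cd36 by 0.62, Itgb1, the beta chain of the collagen-binding integrins, by 1.02 and Itga1, its partner for type IV collagen, by 0.87. The receptor median was 0.19. Over all loci, 6.68% were called higher and 4.36% lower in H. In the other 3 pairs none of these genes was called. At an unadjusted p under 0.05, of the 52 genes tested over the 3 lists, 2 were higher and 3 lower in HC (3.78% and 5.22% of all loci), 7 higher and 1 lower in HH (6.75% and 5.5%), and 0 higher and 3 lower in HHC (1.61% and 2.46%).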

How the data were processed

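Nuclei of labelled adipocytes were pulled down from snap-frozen epididymal fat in a buffer with sodium butyrate and tagmented with Tn5. Reads were trimmed and aligned to GRCm38 (mm10) by the authors, who called peaks on each library by itself with SEACR (1.3) in stringent mode; the submitters' processing notes also name Trim Galore 0.6.6, Bowtie2 2.4.4, SAMtools 1.13 and bedtools 2.30. The study's methods state that peaks in problem regions were removed, not whether before these lists were written. The deposited values are signal, that is, total and maximum coverage per peak, for which the authors state no normalization. The lists hold no read counts, so depth is unknown, and "no peak" means that none passed the caller's threshold. Of the columns with values of single samples, 0 were unmatched.

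For each of the 20807 autosomal protein-coding genes, total signal was summed over peaks overlapping the gene span plus 20 kb by 1 bp or more. Libraries were mapped by rank to the mean sorted log2 values of the 22 libraries, with all lower loci at a floor. Peaks merged over libraries (union regions) were treated alike. A feature was tested when the number of libraries with a value over the floor reached the size of the smaller group. Tests used limma (3.58.1, R 4.3.3; lmFit, eBayes with trend) on the 2 groups of a pair, with Benjamini-Hochberg adjustment over all features tested. Python 3.11.15, numpy 2.4.6, pandas 2.3.3 and scipy 1.17.1 did the rest, and the fits were tested on simulated data.

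Replicates are separate mice, and p-values measure the spread between them. Correlations between the deviations of same-numbered mice ran from -0.23 to 0.18, so the numbers were not taken as pairs. The genes described are those tied to adipose stroma, the 3 loci and 3 regions of smallest p per pair, and the most and least covered loci. The members, gene lists and tests were chosen with earlier results of these data known. Alternatives covered the measure, scaling, flank, filter and model and leaving out each library in turn.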

Additional observations from a re-analysis of the deposited data

How the results depend on the processing

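Counts of collagen loci or regions called that changed by more than 1.5 times are given here, each with the share of all loci or regions called in the same fit. For loci in H relative to C (5 called), the maximum signal gave 3 (3.76%), the covered length 3 (2.39%) and peaks counted in proportion to their length inside the locus 12 (15.8%), and leaving out 1 library gave 2 to 10 (1.32% to 7.74%). For regions in H (9 called), median centring gave 23 (14.1%), the 20000 strongest peaks 4 (5.46%) and a filter of any library 4 (2.63%), and leaving out 1 library gave 0 to 12 (0.43% to 7.55%). Against 0 called in HC relative to CC_s, the maximum signal gave 1 locus (0.0789%) and a fit of all libraries of the short arm 2 regions (1.31%), those of Col5a2 and Col26a1. Both regions were tested only through CC_s, so these calls support nothing. Against 0 called in HH relative to CC_l, leaving out 1 library gave 0 to 1 locus (0% to 1.11%) and 0 to 4 regions (0% to 0.915%), median centring 1 region (0.297%) and the fit with the replicate number as a block 1 region (0.464%). With the replicate block the counts in H were 4 loci (2.03%) and 9 regions (7.82%), where the loci shared 3 with the fit without it, Col3a1 and Col17a1 lost their calls and Col4a2 gained one. Besides that region in HH, the block changed no count of calls in the other comparisons. In HHC relative to CCC and for the difference between durations no alternative moved a count from 0. Among loci and regions past the unadjusted threshold in a pair, these turned direction with the maximum signal: Col3a1 0.24, Col20a1 -0.13, Col28a1 -0.077 and Col6a2 -0.18 in H, Col3a1 0.25 and Col6a6 -0.40 in HC, Col4a1 -0.12, Col5a3 0.037 and Col12a1 -0.35 in HH, and the Col16a1 region -0.026 in HH. The counts at an unadjusted p moved too, as the report gives for loci in each pair and for regions in HC, HH and HHC. For regions in H they moved from 9 higher and 2 lower to 22 and 1 with median centring. The sign of the collagen median turned under several alternatives, whose values stand in the report. The cause was not tested. With the covered length, which was not mapped by rank, the median over all loci was -0.09, -0.54, -0.18 and -0.28 in H, HC, HH and HHC relative to their chow groups. Leaving out the 4 libraries of low enrichment from the peak counts was chosen after seeing the data. Depth is unknown, and groups of 2 or 3 mice limit the precision.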
